A study of Rattus norvegicus with 15 samples.

Results

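The adult liver of male offspring was compared between mothers whose calories had been restricted before birth and mothers fed normally. The comparison set 6 arrays of day 450 liver from prenatally restricted Sprague-Dawley rats against 3 arrays of day 450 controls, so it used 9 of the 15 arrays of the series. Arrays were chosen by their titles. In 3 of the restricted rats the mother received a 50% cut in calories from embryonic day 11 to 21 (IUCR, intra-uterine restriction). In the other 3 the cut was repeated from postnatal day 1 to 21, through lactation (IPCR, intra-uterine and postnatal restriction). Control mothers (Con) were fed normally throughout. The remaining 6 arrays hold day 21 liver, 3 of IPCR and 3 of control offspring, and entered only the estimate of spread and the comparison of ages. Each array is 1 rat, named here by its group and the replicate letter A, B or C. Replicates are separate littermates per the labels, which do not say how many litters they came from, so a p-value here speaks only for the spread among these animals. The labels give neither the hour of collection nor any scan date.

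The question belongs to the study of developmental programming, in which nutrition during fetal life is held to leave lasting settings in metabolic organs. The liver is a main candidate, because it makes glucose, cholesterol and bile acids, clears drugs, and answers growth hormone and glucocorticoids. It also carries a circadian clock, in which BMAL1 with CLOCK or NPAS2 switches on the Per, Cry, Nr1d and Dbp genes, and the PER, CRY and NR1D (REV-ERB) proteins then hold BMAL1 activity or expression back. Clock genes therefore differ with the time of day at which a liver is taken.

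All values are log2 intensities, so a difference of 1 is a doubling. The livers were rich in hepatocyte transcripts on every array, the mean of 10 hepatocyte markers lying between 13.33 and 13.46. Any pair of a control and a restricted array correlated at r between 0.986 and 0.993 across genes (18 pairs), and arrays of the same group at 0.990 to 0.993 (9 pairs). Array IPCR C stood apart in pancreatic acinar transcripts, the digestive enzymes of the exocrine pancreas. The mean of its 8 acinar markers was 8.97 against 6.70 to 7.02 on the other 8 arrays, and amylase Amy2a3 was at 10.06 against 6.34 to 6.59. Array IUCR B stood apart in genes that are usually higher in male rat liver. Its Cyp2c11 was 11.64 against 12.50 to 13.42 elsewhere at day 450, its Hsd3b5 9.36 against 11.28 to 12.56, and its female-biased Cyp2c12 12.01 against 8.48 to 10.57. For many gene lists the median without 1 array is given beside the median itself. In whole liver, fewer cells of a type and less RNA per cell cannot be told apart.

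No gene was called different between prenatally restricted and control liver. Of 14506 genes, 0 (0%) had an adjusted p below 0.05 in the limma contrast of the mean of both restricted groups with control, with Benjamini-Hochberg adjustment over all genes. At an unadjusted p below 0.05 there were 1780 genes (12.3%), 1084 higher (7.47%) and 696 lower (4.8%) in restricted liver. At an adjusted p below 0.10 there were 3 (0.0207%), Ptprt, Acbd7 and Ltc4s, all lower. The count at 0.05 was also 0 without IPCR C and without IUCR B. It was 4 without control B (Ptprt lower, Coq8a, Ndufa10 and Xpnpep2 higher), 1 without IUCR A (Acbd7) and 1 without IUCR C (Ltc4s).

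The intervals give the precision of the change averaged over both exposures, taken 1 gene at a time. The median gene had a standard error of 0.08 and a 95% interval reaching 0.18 to either side of its estimate. The interval lay inside 1 on the log2 scale, a doubling, for 14413 genes (99.4%), and inside 0.5 on the log2 scale for 13687 (94.4%). Only 9 genes had an estimate beyond 1, 6 higher and 3 lower. They include Ifit1, Stac3 and Ltc4s, described further on. Taken 1 exposure at a time against the same 3 controls, IUCR alone gave 0 genes (0%; 1052 at unadjusted p below 0.05, 7.25%; 2 without control B). IPCR alone gave 5 (0.0345%): Med14, Cxcl14 and Ugt2b1 were higher, and Pmm1 and Ltc4s lower. The 5 were 0 without IPCR A, IPCR C or control A, 2 in a fit of the 9 day 450 arrays, 3 without control B or control C, 8 without IUCR A and 80 without IPCR B. Both contrasts use the same 3 controls, so no overlap between them is given as a result.

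For 621 genes (4.28%) the 6 restricted and 3 control values did not overlap, with all restricted values above the controls for 383 (2.64%) and below for 238 (1.64%). The side on which a gene lay went with its brightness. In the brightest quartile of genes, 635 were higher and 39 lower at unadjusted p below 0.05, and the median change was 0.09. In the dimmest quartile 51 were higher and 259 lower, with a median change of -0.05. The width of the array distributions moved the same way: the interquartile range of gene values was 2.26, 2.19 and 2.05 on controls A, B and C, 2.26, 2.18 and 2.35 on the IUCR arrays, and 2.30, 2.21 and 2.45 on the IPCR arrays. Means were 2.29 ± 0.10 (SD, n = 6) and 2.17 ± 0.11 (SD, n = 3), and an exact two-sided permutation test gave p = 0.143, where 0.0238 is the smallest it can give. When all arrays were forced to 1 distribution by quantile normalization, the brightest quartile held 173 higher and 198 lower genes, and the totals became 655 higher and 694 lower. The split between higher and lower genes thus depends on this scaling, and most list medians below are given with their quantile-normalized value.

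**Figure D1:**
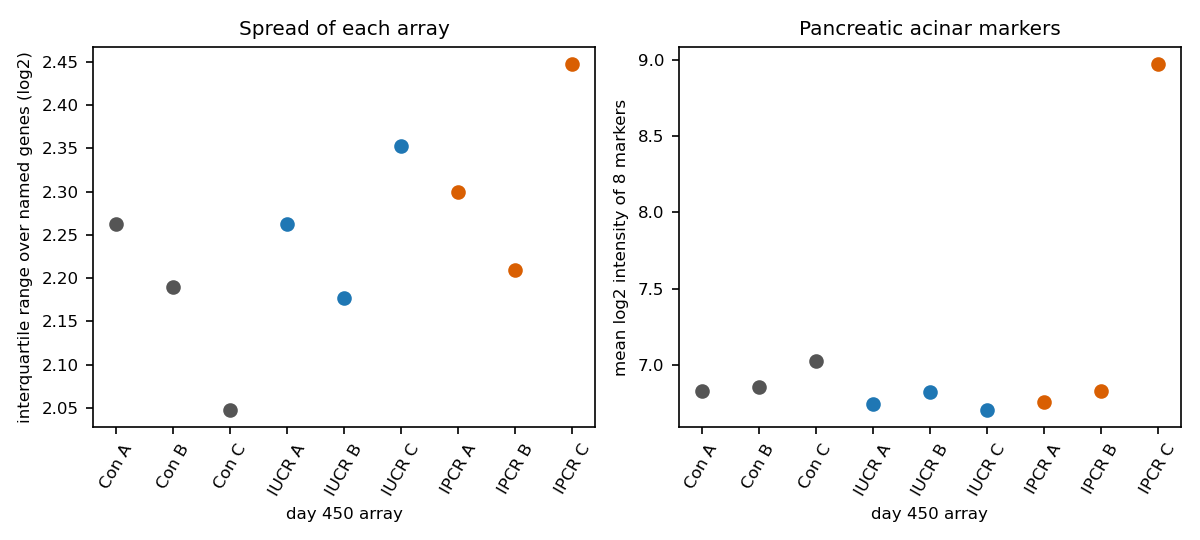
Interquartile range of log2 gene values on each day 450 array (left) and mean log2 level of 8 pancreatic acinar markers (right), 1 point per array, coloured by group. IPCR C has the widest distribution at 2.45 and an acinar mean of 8.97, while control C has the narrowest distribution at 2.05.

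**Figure D2:**
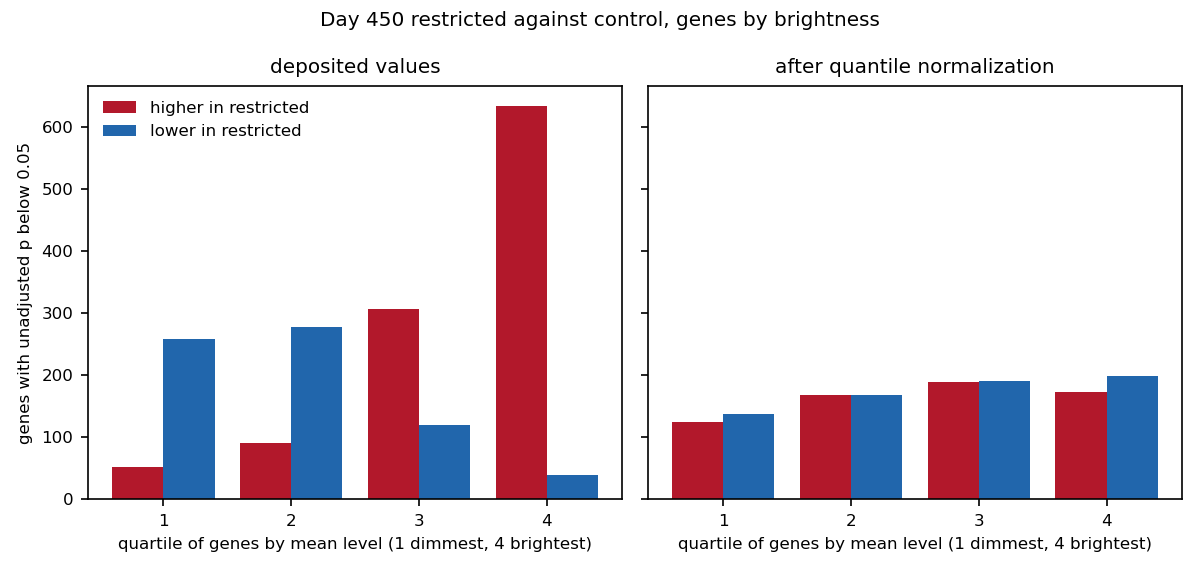
Number of genes higher or lower in restricted liver at unadjusted p below 0.05, by quartile of mean log2 level from dim to bright, on deposited values (left) and after quantile normalization (right). On deposited values the brightest quartile holds 635 higher and 39 lower genes; after normalization it holds 173 and 198.

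The genes that came nearest to a common difference are described next, 12 in each direction by the smallest p. None passed the adjusted threshold of 0.05. Since the rule picked them for this contrast, their values are given as a description. Among the lower genes the 3 nearest were Ptprt, Ltc4s and Acbd7. Ptprt encodes a receptor-type protein tyrosine phosphatase. It stood at 7.38, 6.84 and 7.44 on the controls, at 6.46, 6.48 and 6.57 on the IUCR arrays, and at 6.51, 6.53 and 6.55 on the IPCR arrays. The 6 restricted values lay within a narrow band below every control, and control B was the lowest control. The restricted mean was lower by 0.70 (log2 change -0.70 ± 0.10, SE; 1.63-fold; limma adjusted p = 0.0752).

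Ltc4s, the synthase of the inflammatory mediator leukotriene C4, showed the largest difference of the 12 lower genes. Its values were 8.83, 9.07 and 9.32 on controls, 8.11, 7.63 and 8.76 on IUCR arrays, and 7.42, 7.91 and 7.63 on IPCR arrays. IUCR C came close to control A, and the other restricted arrays lay well below. The log2 change was -1.17 ± 0.19 (SE; 2.24-fold lower; limma adjusted p = 0.0975). Acbd7, which belongs to the acyl-CoA-binding proteins, was at 5.89, 6.19 and 6.05 on controls against 5.76, 5.53 and 5.29 on IUCR and 5.50, 5.36 and 5.53 on IPCR arrays. This is a dim probe set, and the log2 change was -0.55 ± 0.09 (SE; limma adjusted p = 0.0975).

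Pmm1, a phosphomannomutase, was at 8.15, 8.26 and 8.20 on controls, at 7.96, 7.88 and 7.92 on IUCR arrays and at 7.57, 7.52 and 7.66 on IPCR arrays. Both restricted groups lay below the controls and did not overlap each other, IPCR being the lower. The log2 change was -0.45 ± 0.08 (SE; limma adjusted p = 0.107). A second Pmm1 probe set of similar brightness differed by only -0.10, so the size of this difference depends on the probe set. Jchain, the joining chain of polymeric immunoglobulins, had control values of 6.11, 6.07 and 6.54, and restricted values from 5.42 to 5.94 with a median of 5.52. All restricted arrays lay below the controls, with IPCR A the highest of the restricted. All 4 measured markers of B cells and plasma cells, Jchain included, were below 0 with a median of -0.20, and Cd79b, a part of the B cell receptor, was at -0.27 ± 0.09 (SE; limma adjusted p = 0.305).

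The remaining lower genes had log2 changes from -0.41 to -0.24. They were Scgb1c1, a secretoglobin (-0.41), Gpr139, an orphan receptor (-0.39), Tmem215 (-0.37), Syndig1l (-0.36), Bst1, an ADP-ribosyl cyclase of the cell surface (-0.36), Meig1 (-0.35) and Sertad1 (-0.24). In 11 of the 12 lower genes all 6 restricted values lay below all controls, Meig1 being the exception with 4 of 6. The share over all genes was 1.64%. These 12 were picked by this contrast, which favours such separation, so nothing is read from the count. Most of these genes are faint in liver. Their median level was 6.60, 10 of 12 were below the median gene, and 5 were below the lower quartile.

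The 12 higher genes were mostly well expressed, with a median level of 9.40, and 11 were above the median gene. Coq8a encodes a kinase-like protein required for coenzyme Q synthesis in mitochondria. It was at 10.60, 11.09 and 10.76 on controls, at 11.57, 11.23 and 11.55 on IUCR arrays and at 11.27, 11.34 and 11.29 on IPCR arrays. Every restricted value was above every control, by a small margin over control B. The log2 change was 0.56 ± 0.10 (SE; 1.47-fold; limma adjusted p = 0.109). Gpt, alanine aminotransferase, which links alanine to gluconeogenesis, showed the largest difference of the 12. Its values were 9.01, 9.35 and 8.84 on controls, 9.99, 9.24 and 9.95 on IUCR arrays and 10.33, 9.66 and 10.58 on IPCR arrays. IUCR B lay below control B, and the other 5 restricted arrays lay above all controls. The log2 change was 0.89 ± 0.19 (SE; 1.85-fold; limma adjusted p = 0.196).

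Med14, a core subunit of the Mediator complex, had the smallest p among higher genes. It was at 4.97, 4.97 and 4.99 on controls, at 5.56, 5.13 and 5.36 on IUCR and at 5.52, 5.86 and 5.66 on IPCR arrays (log2 change 0.54 ± 0.09, SE; limma adjusted p = 0.101). It is a dim probe set, at percentile 8.35 of mean level. Another Mediator subunit, Med13, was bright, with control values of 9.47, 9.33 and 9.53 and restricted values from 9.59 to 9.94 (median 9.72). The groups did not overlap, and the log2 change was 0.31 ± 0.07 (SE; limma adjusted p = 0.196). Qdpr, dihydropteridine reductase, which regenerates the cofactor of phenylalanine hydroxylase, was at 10.66, 10.75 and 10.37 on controls and from 10.79 to 11.14 on restricted arrays (median 11.08). IUCR B was the lowest restricted array and only just above control B.

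The other higher genes were Nrep (0.49), the Wnt receptor Fzd4 (0.39), the inositol trisphosphate receptor Itpr2 of the endoplasmic reticulum (0.39), the matrix protein Ccdc80 (0.36), the phosphoinositide phosphatase Sacm1l (0.34), the galanin receptor Galr3 (0.32) and the deubiquitinase Otulin (0.27; a second, dimmer Otulin probe set gave 0.10). In 11 of the 12 all 6 restricted values lay above all controls, Gpt being the exception. The share over all genes was 2.64%, and nothing is read from this count either, since the contrast picked the genes. All 24 genes kept their direction under each alternative that kept all genes, and the 13 above the median level kept it when only those were fitted. Genes picked by small p in the main fit tend to keep their direction, so this is a description.

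**Figure D3:**
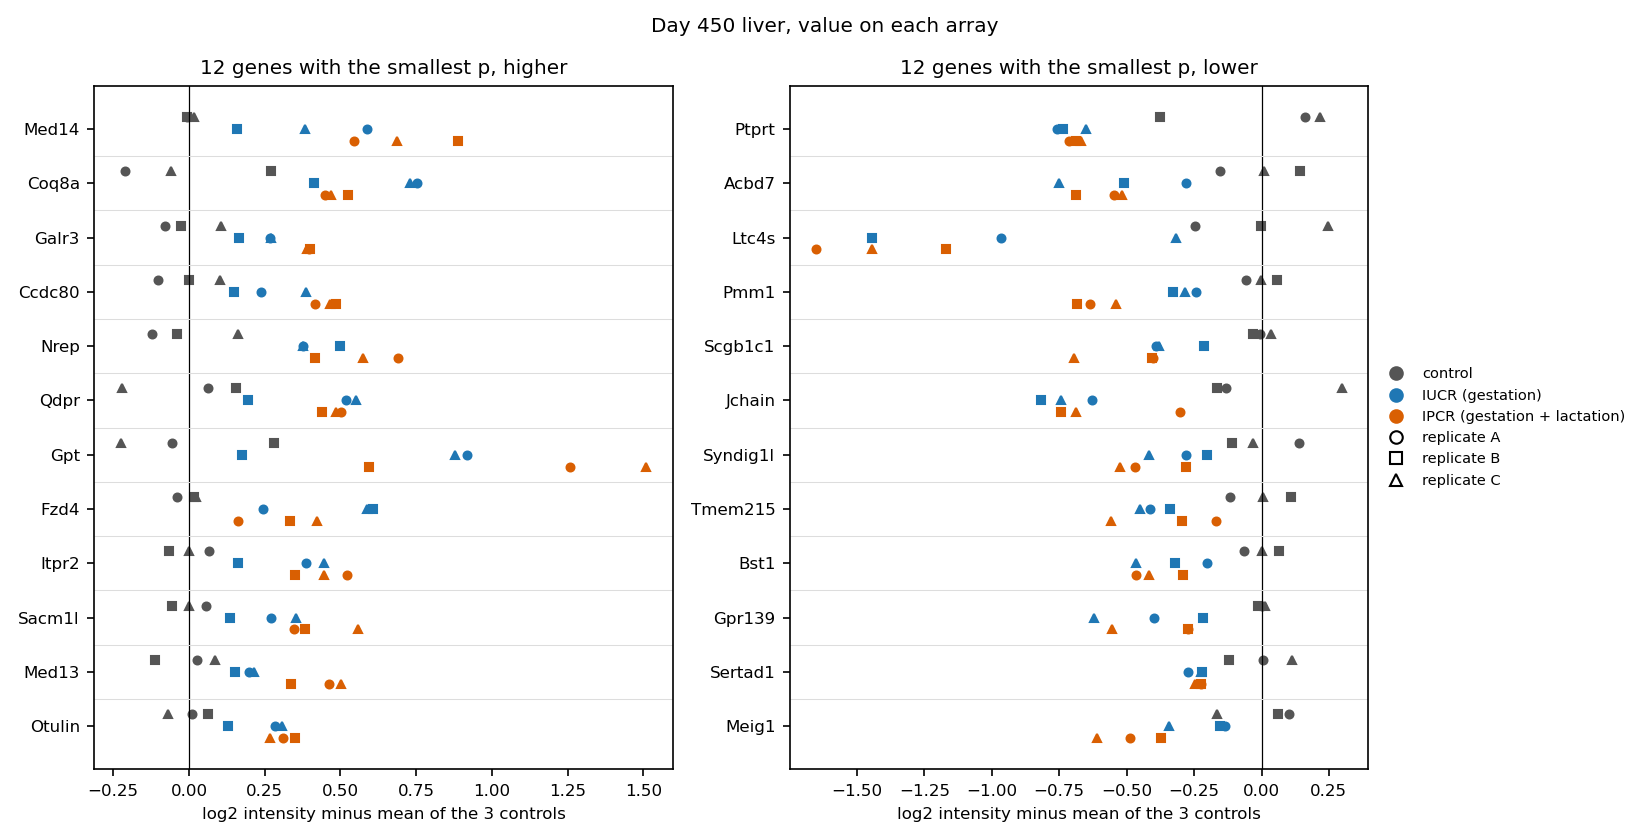
Log2 difference of each day 450 array from the control mean for the 12 genes with the smallest p that were higher (left) and lower (right) in restricted liver, 1 point per rat. In 11 of 12 genes on each side the 6 restricted points lie beyond all 3 control points, Gpt and Meig1 being the exceptions. The genes were picked by this contrast, which favours such separation. Ltc4s and Gpt show the widest shifts at -1.17 and 0.89.

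Whether the exposures differed was tested as IPCR minus IUCR in the same fit, with the controls entering only the estimate of spread. IPCR and IUCR differed in 6 genes of 14506 (0.0414%), 5 of them higher in IPCR, and at unadjusted p below 0.05 in 1084 (7.47%). Cyp7a1, the rate-limiting enzyme of bile acid synthesis, was at 9.42, 9.63 and 9.22 on IUCR arrays and at 11.48, 10.89 and 11.57 on IPCR arrays, with controls between at 9.77, 9.64 and 10.69. It was higher in IPCR by 1.89 (95% interval 1.36 to 2.43; limma adjusted p = 0.0243). The pooled change of 0.33 therefore averages an estimate of -0.61 in IUCR with an estimate of 1.28 in IPCR. The chemokine Cxcl14 was higher in IPCR by 0.86 and the glutathione transferase Gstm3 by 1.04. Zfp189, a zinc finger protein, was higher by 1.11 and Pus3, a pseudouridine synthase, by 0.52. Apol3l1 was lower in IPCR by 1.16 (log2 difference -1.16). These calls rest on few arrays: without IPCR C, IPCR A or IUCR C the count was 0, without control A it was 1, without IUCR B it was 2, and without IPCR B it was 14. Leaving out a day 21 array, which enters only the estimate of spread, gave 0 to 5. The count was also 0 after quantile normalization and in a fit of the 9 day 450 arrays. The Cyp7a1 difference was 1.76 without IPCR C, the array with acinar transcripts, and the part of that array's composition in these calls was not tested.

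Among the 24 genes nearest to a common difference, 0 differed between the exposures at the adjusted threshold. At unadjusted p below 0.05, 5 of the 12 higher and 3 of the 12 lower genes did (background 7.47%). Picking genes by small p favours a small spread, and the same spread estimate serves this comparison. Nothing is therefore read from these counts. The interval for Ptprt ran from -0.23 to 0.28, and that for Sertad1 from -0.14 to 0.15. The Ltc4s interval was -0.98 to -0.04 and the Pmm1 interval -0.53 to -0.14, both towards a lower level in IPCR.

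Day 21 liver, from other rats, showed whether these differences were already there at weaning in IPCR offspring. At that age 1396 genes (9.62%) differed between IPCR and control, 382 higher (2.63%) and 1014 lower (6.99%). The count was 832, 755 and 779 without day 21 control B, IPCR A and IPCR B. Of the 12 genes higher at day 450, Gpt was also higher at day 21 (0.86; limma adjusted p = 0.0194). Nrep was lower at that age (-2.49, adjusted p = 8.53e-09), and the other 10 did not pass. Of the 12 genes lower at day 450, Jchain was also lower at day 21 (-0.59, adjusted p = 0.0212). Pmm1 was higher at that age (0.31, adjusted p = 0.041), and the others did not pass. Ptprt, Acbd7 and Ltc4s stood at 0.04, -0.08 and 0.05 at day 21. The difference between the ages passed for 1235 genes (8.51%), among them 7 of the 12 higher and 9 of the 12 lower genes. These 24 were chosen by the day 450 change, which is a part of this difference, so nothing is read from their counts. The count over all genes was 808, 705 and 772 without the same 3 day 21 arrays, and 292 with each array's interquartile range in the model. The day 21 contrast holds IPCR only, so age and the presence of IUCR rats differ together here.

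The liver clock is described by its arms, which peak at different times of day. Promoter windows are shown for 2 of the 6 clock genes with the smallest p, because only these 2 held a match to a searched motif. Of the others, Wee1 has no entry, and the windows of Clock, Npas2 and Nfil3 held 0 matches. The upstream 250 bases of Bmal1 hold the letters of a ROR element, a motif through which RORs activate and REV-ERBs repress. A window of Nr1d1 (REV-ERB alpha) holds the letters of an E-box, the motif bound by BMAL1 and CLOCK. Sequences are from RefSeq, assembly GRCr8, written 5′ to 3′ on the gene's strand, with the motif in capitals. Bmal1 lies on the plus strand at chr1:176766078-176766327, and its capitals mark the ROR element GTAGGTCA. Nr1d1 has 2 listed starts, and the window of the first held 0 matches. The window of the second is therefore shown, on the minus strand at chr10:84229455-84229704, and the capitals mark the E-box letters CACGTG.
Bmal1: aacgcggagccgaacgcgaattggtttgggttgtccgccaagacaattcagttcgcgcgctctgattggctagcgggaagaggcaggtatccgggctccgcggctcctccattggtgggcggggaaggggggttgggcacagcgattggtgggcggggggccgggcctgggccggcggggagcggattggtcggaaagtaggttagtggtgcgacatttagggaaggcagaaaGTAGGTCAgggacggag
Nr1d1: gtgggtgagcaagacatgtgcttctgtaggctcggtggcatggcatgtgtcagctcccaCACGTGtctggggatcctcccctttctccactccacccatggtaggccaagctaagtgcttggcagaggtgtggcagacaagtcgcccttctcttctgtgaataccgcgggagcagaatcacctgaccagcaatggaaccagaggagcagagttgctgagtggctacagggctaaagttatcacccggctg

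Motifs were searched on both strands of windows reaching from 250 bases before to 50 bases after the start. GTAGGTCA occurs in 0.598% of 33469 such promoters and CACGTG in 6.42%. The D-box letters TTATGTAA and TTATGCAA occur in 0.893% and 0.864%. Of the 17 clock genes measured, 15 have an entry, and 6 of those hold at least 1 of the motifs: the 2 printed, Bhlhe41, Bhlhe40 and Tef with an E-box, and Per2 with a D-box. A match is a description of these letters and not a measured binding site.

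Bmal1 itself was at 6.31, 6.53 and 6.62 on controls, at 7.07, 7.45 and 7.99 on IUCR arrays and at 6.24, 7.06 and 6.81 on IPCR arrays. All IUCR arrays lay above the controls, IPCR A lay below them, and the pooled log2 change was 0.61 ± 0.20 (SE; limma adjusted p = 0.295). Its partner Clock was at 8.88, 8.88 and 8.86 on controls, at 9.09, 8.97 and 9.41 on IUCR arrays and at 8.92, 9.20 and 9.18 on IPCR arrays. Clock was the only measured clock gene whose groups did not overlap, with a change of 0.25 ± 0.09 (SE; limma adjusted p = 0.319). Npas2, which can replace CLOCK, was at 7.21, 7.72 and 7.70 on controls and from 7.58 to 8.71 on restricted arrays (median 7.97; change 0.52 ± 0.19, SE; limma adjusted p = 0.332). The 5 genes of the BMAL1 arm, with Nfil3 (0.21) and Cry1 (0.00), had a median of 0.25. Of these, 3 were higher at unadjusted p below 0.05, where 7.47% of all genes were. The Cry1 value averages -0.29 in IUCR, where all arrays lay below the controls, with 0.29 in IPCR. Cry1 was at -0.05 without control C and 0.08 at its highest on leaving out 1 array. The list median was 0.30 in IUCR and 0.22 in IPCR, and 0.16 on quantile-normalized values.

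Genes driven by BMAL1 showed no common direction. The 12 measured genes of the PER/DBP arm had a pooled median of -0.14 (-0.18 after quantile normalization, and -0.01 without IPCR B), with 3 above 0 and only Wee1 at unadjusted p below 0.05. Wee1, a cell cycle kinase under clock control, was at 7.66, 7.11 and 7.02 on controls, at 6.61, 6.50 and 6.40 on IUCR arrays and at 7.02, 6.89 and 7.14 on IPCR arrays (pooled change -0.50 ± 0.16, SE; limma adjusted p = 0.280). Only the IUCR arrays lay wholly below the controls. Dbp, a clock output factor, was at 11.60, 11.49 and 11.32 on controls, 11.21, 10.90 and 10.36 on IUCR arrays and 11.76, 11.24 and 11.73 on IPCR arrays. All 3 IUCR values were below the controls, and IPCR values lay on either side. Against the shared controls, 1 of the 12 genes was above 0 in IUCR (median -0.30) and 10 were in IPCR (median 0.11).

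The direct comparison of the exposures took its estimates without the controls, which entered only the spread. It placed 9 of these 12 genes higher in IPCR at unadjusted p below 0.05 and 0 lower, where 5.45% of all genes were higher. The list was chosen with earlier results of these data known, and its genes were measured in the same rats. They are not independent, so nothing is read from the count. The median difference was 0.44. Dbp differed by 0.75 (95% interval 0.31 to 1.19; limma adjusted p = 0.395), Bhlhe41 by 0.72 (0.37 to 1.06; adjusted p = 0.239) and Usp2 by 0.56 (0.14 to 0.98; adjusted p = 0.502). Cry1 differed by 0.59 (0.36 to 0.81; adjusted p = 0.0951) and Bmal1 by -0.80 (-1.30 to -0.31; adjusted p = 0.422). No clock gene passed the adjusted threshold in this comparison. The period genes had pooled changes of -0.16 (Per1), -0.13 (Per2) and -0.22 (Per3), averages of negative IUCR values (-0.36, -0.37 and -0.47) and IPCR values near 0 (0.04, 0.12 and 0.03). Cry2 (-0.04), Tef (-0.05) and Nr1d2 (0.02) were near 0 and changed sign in some settings. Nr1d1 was at 0.28 ± 0.13 (SE; limma adjusted p = 0.409), with 5 of 6 restricted arrays above all controls.

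At day 21, in IPCR offspring, 4 of the 5 BMAL1 arm genes were lower and 10 of the 12 PER/DBP arm genes higher, the latter with a median of 0.76 over the arm. Bmal1 was at -2.07 and Dbp at 2.19 then. The change at day 450 differed from that at day 21 by 2.69 for Bmal1 (limma adjusted p = 0.000129) and by -2.46 for Dbp (adjusted p = 0.000119). The test of this difference passed for 12 of the 17 clock genes, against 8.51% of all genes. These genes were listed with earlier results known and share the same rats, so nothing is read from that count. The labels name no hour of collection at either age, and its part in these differences was not tested.

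**Figure D4:**
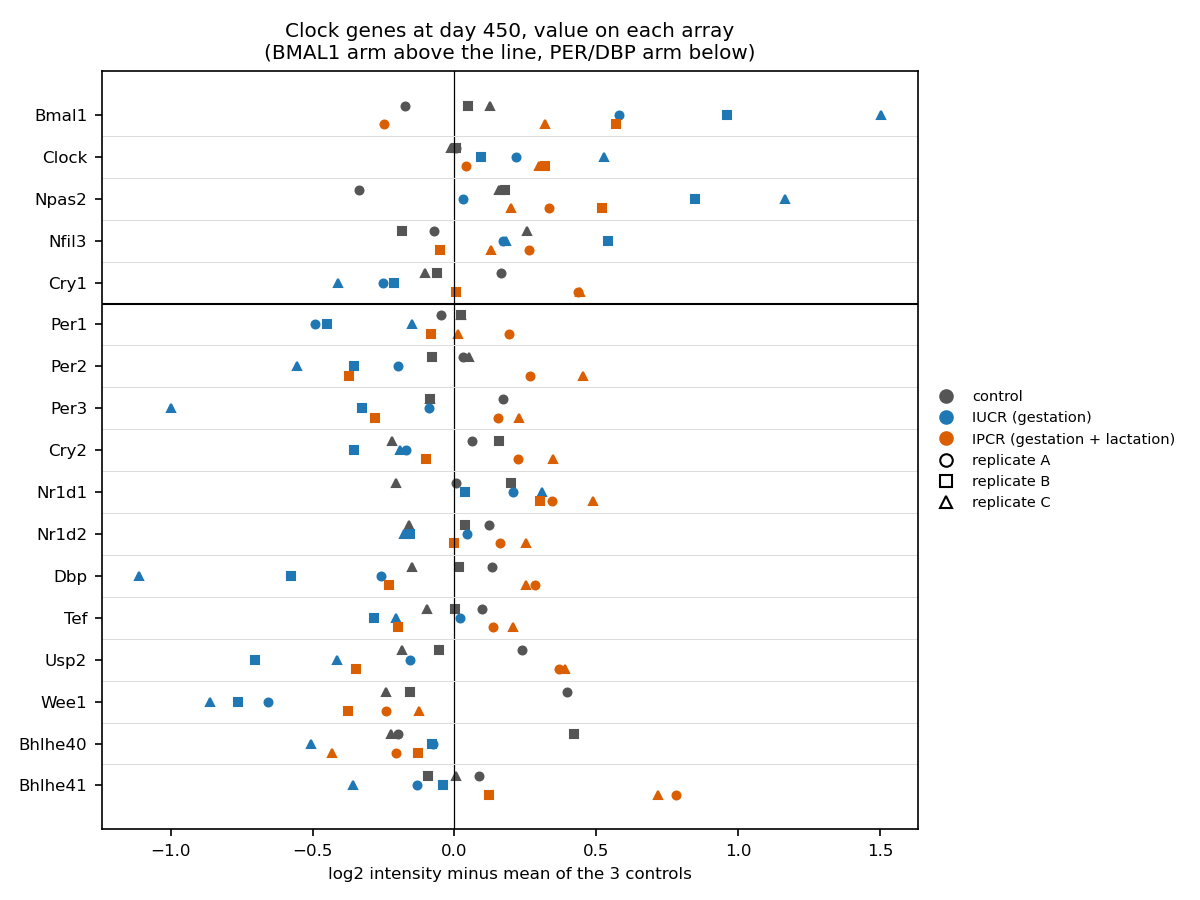
Log2 difference of each day 450 array from the control mean for the 17 measured clock genes, 1 point per rat, with the BMAL1 arm above the PER/DBP arm. Bmal1 is above all controls on the 3 IUCR arrays. Dbp, Per1, Per2, Per3 and Wee1 are below all controls on those arrays while the IPCR points lie around or nearer to the controls. Cry1, of the BMAL1 arm, is also below all controls on the IUCR arrays, with IPCR points within or above the control range.

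Across 38 lists of pathway, response and cell type genes, 0 members passed in the pooled contrast. The list medians below are to be read beside a median of 0.01 over all genes and the 7.47% higher and 4.8% lower at unadjusted p below 0.05. Over all genes 7670 of 14506 were above 0, and the brightest quartile had a median of 0.09. Members of a list share the same rats and are not independent, so counts above 0 are a description. The members named below were picked mainly by small p in this contrast, which favours groups that do not overlap. Over all genes, 2.64% had all restricted values above the controls and 1.64% below. Nothing is therefore read from such separation in the named members. Oxidative phosphorylation is the work of the mitochondrial respiratory chain and ATP synthase. Of 30 genes measured, 29 were above 0 and 8 had an unadjusted p below 0.05, all higher, with a median of 0.12. Cox4i1, a subunit of cytochrome c oxidase, was at 10.84, 10.86 and 10.72 on controls and from 10.90 to 11.04 on restricted arrays (median 10.98). All 6 restricted values lay above the controls (change 0.17 ± 0.06, SE; limma adjusted p = 0.303). Ndufs3 of complex I was at 0.22 ± 0.07 (SE; limma adjusted p = 0.281). These genes are bright, and the list median was 0.02 after quantile normalization and 0.07 without control C.

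Cholesterol synthesis genes had been far lower in IPCR liver at day 21, where 17 of the 18 measured were changed downward with a median of -1.34. At day 450 all 18 were above 0, with a median of 0.18 (0.08 after quantile normalization) and 0 at unadjusted p below 0.05. The median was 0.11 without control A and 0.31 without control C. Srebf2, the transcription factor that drives this pathway, was at 9.52, 9.41 and 9.74 on controls and from 9.73 to 9.84 on restricted arrays (median 9.77). Only IPCR B lay below control C, by a small margin, and the change was 0.22 ± 0.16 (SE; limma adjusted p = 0.564). Hsd17b7, a sterol reductase of the pathway, was at 0.31 ± 0.18 (SE; adjusted p = 0.494).

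Fatty acid genes had no common direction. The 19 synthesis genes had a median of 0.07 that became -0.03 after quantile normalization, and the 20 oxidation genes 0.03 and -0.07. Without control A the medians were -0.12 and -0.02, and the oxidation median was 0.07 without IUCR B. Malic enzyme Me1, which supplies NADPH for lipid synthesis, was at 9.35, 10.25 and 9.92 on controls and from 8.73 to 9.36 on restricted arrays (median 9.22). Only IPCR B, at 9.36, lay within the control range, and the change was -0.68 ± 0.22 (SE; limma adjusted p = 0.282). Dgat2, which makes triglyceride, was at 0.28 ± 0.09 (SE; adjusted p = 0.293). The omega-hydroxylase Cyp4a1 was at -0.39 ± 0.14 (SE; adjusted p = 0.335).

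Glucose genes had a median of 0.14 over 16 measured (0.08 after quantile normalization), with 13 above 0 and 2 at unadjusted p below 0.05. Beside Gpt, this was Pygl, liver glycogen phosphorylase, at 10.87, 11.25 and 10.95 on controls and from 11.24 to 11.50 on restricted arrays (median 11.35). IUCR B lay just below control B, and the change was 0.33 ± 0.09 (SE; limma adjusted p = 0.254). Bile acid and sterol transport genes had 5 of 16 at unadjusted p below 0.05, all higher, and a median of 0.16 (0.07 after quantile normalization, and 0.04 without control C). The racemase Amacr was at 0.34 ± 0.11 (SE; adjusted p = 0.294), which was 0.14 without control C, and the bile acid and drug carrier Slco1b2 at 0.29 ± 0.10 (SE; adjusted p = 0.315).

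Xenobiotic metabolism genes had 6 of 23 at unadjusted p below 0.05, all higher, and a median of 0.15 (0.04 after quantile normalization). The median was 0.00 without control C and 0.26 without control B. Ugt2b1, a glucuronosyltransferase whose family shares near-identical sequence and may share probes, was at 9.97, 10.03 and 10.08 on controls, 10.002, 10.32 and 10.28 on IUCR arrays and 10.93, 11.03 and 10.83 on IPCR arrays. The IPCR arrays stood well above the rest, and the IUCR arrays lay close to the controls. Its pooled change of 0.54 is the mean of 0.17 in IUCR and 0.90 in IPCR. Ahr, the aryl hydrocarbon receptor, was at 7.82, 8.40 and 8.16 on controls and from 8.24 to 8.78 on restricted arrays (change 0.40 ± 0.11, SE; limma adjusted p = 0.259).

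Genes that mark the zones of the liver lobule were above 0 for the side near the central vein and the portal side alike. All 13 measured pericentral genes were above 0 (median 0.28, and 0.18 after quantile normalization), 4 at unadjusted p below 0.05. The median was 0.14 without control A. Of 13 periportal genes 12 were above 0 (median 0.24, and 0.14), 3 at unadjusted p below 0.05. The urea cycle enzyme Cps1 was at 13.13, 13.27 and 13.34 on controls and from 13.41 to 13.67 on restricted arrays (median 13.47). Its groups did not overlap (change 0.26 ± 0.08, SE; limma adjusted p = 0.281). The same held for the protease Ctsc, at 12.38, 12.32 and 12.50 on controls and from 12.57 to 12.81 on restricted arrays (change 0.28 ± 0.08, SE; adjusted p = 0.277). The pericentral glutamate carrier Slc1a2 was at 0.57 ± 0.22 (SE; adjusted p = 0.339).

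Among sex-biased liver genes, Stac3 and Abcg2 had the smallest p. Stac3, listed as male-biased, was at 8.88, 6.89 and 7.77 on controls and from 8.69 to 10.75 on restricted arrays (median 9.12). IUCR B lay below control A, IPCR C was the highest, and controls B and C stood clearly below the others. The change was 1.498 ± 0.36 (SE; 2.82-fold; limma adjusted p = 0.236). Abcg2, a transporter listed as female-biased, was at 8.10, 7.90 and 7.56 on controls and from 6.31 to 7.61 on restricted arrays (median 6.999), with IPCR B inside the control range (change -0.92 ± 0.23, SE; adjusted p = 0.241). Of the 8 male-biased genes 7 were above 0, with a median of 0.24 that was 0.12 after quantile normalization, -0.04 without control C and 0.46 without IUCR B. The female-biased median was 0.03, which was -0.01 after quantile normalization, -0.05 without IUCR B and 0.25 without control C. Growth hormone and IGF genes had a median of 0.04 (-0.04 after quantile normalization), with Stat5b, the factor that carries the growth hormone signal, at 0.24 ± 0.09 (SE; adjusted p = 0.323) and the feedback inhibitor Socs3 at -0.26 ± 0.09 (SE; adjusted p = 0.314).

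Glucocorticoid signalling is often studied after prenatal undernutrition, and its receptor Nr3c1 was at 10.22, 9.95 and 10.22 on controls and at 10.46, 10.32 and 10.36 on IUCR arrays and 10.72, 10.43 and 10.62 on IPCR arrays. All restricted values were above all controls, with a change of 0.36 ± 0.09 (SE; limma adjusted p = 0.241). The list of 14 glucocorticoid genes, which counts Nr3c1 itself, had a median of 0.15 (0.11 after quantile normalization, and 0.07 without control C). Of these 9 were above 0 and 3 at unadjusted p below 0.05, among them Nr3c1 and Klf9, the latter at 0.38 ± 0.15 (SE; adjusted p = 0.350). Immediate early genes, which respond within minutes to stimuli, had a median of -0.05, which was -0.13 without IUCR B. Egr1 was at 8.12, 8.19 and 8.89 on controls and from 7.62 to 8.16 on restricted arrays, with only IUCR B within the control range (change -0.59 ± 0.18, SE; adjusted p = 0.280), and Junb was at -0.32 ± 0.08 (SE; adjusted p = 0.241).

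Among the other stress lists, the medians were 0.02 for heat shock, 0.06 for the unfolded protein response and -0.09 for NRF2 targets. The first pair changed sign after quantile normalization (-0.05 and -0.02), and the NRF2 median was -0.04 then and 0.03 without control A. The heat shock median was -0.01 without IPCR A. Amino acid response genes had a median of -0.03, which was -0.09 without IUCR B. Asns, asparagine synthetase, was at 8.33, 7.06 and 6.91 on controls and from 6.40 to 7.01 on restricted arrays (median 6.69). Control A alone was far above the rest, and the change of -0.73 was -0.28 without it. Cth, which makes cysteine, was at 12.02, 12.83 and 12.82 on controls, control A being the lowest, and at 12.81 to 13.33 on restricted arrays. Fetal and imprinted genes had a median of -0.01 (0.01 after quantile normalization and without IPCR C) and cell cycle genes -0.03 (0.03 after quantile normalization, 0.01 without control C). Cyclin Ccne1 was below all controls on all 6 restricted arrays (change -0.33 ± 0.11, SE; adjusted p = 0.293). The imprinted RNA H19 was at -0.31 ± 0.16 (SE; adjusted p = 0.458), while its other probe set was at 0.00.

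Immune genes were mixed. The interferon-induced Ifit1 spread widely in every group, at 5.23, 8.67 and 5.10 on controls, 7.86, 9.89 and 5.50 on IUCR arrays and 7.49, 9.10 and 9.45 on IPCR arrays. Controls and restricted rats overlapped, and the change of 1.88 has a 95% interval from 0.07 to 3.70 (limma adjusted p = 0.393). The interferon list had a median of 0.07, which was 0.00 after quantile normalization, -0.01 without control A and 0.15 without IPCR A. RT1-Bb, a class II antigen-presenting molecule of a family that may share probes, was at 8.63, 8.77 and 8.16 on controls, 8.03, 8.04 and 7.63 on IUCR arrays and 7.69, 7.74 and 7.68 on IPCR arrays. Every restricted value lay below every control (change -0.72 ± 0.20, SE; adjusted p = 0.259). The list of 15 antigen presentation genes had a median of 0.04 (-0.03 after quantile normalization, -0.01 without control C). Acute phase genes had a median of -0.09, which was -0.17 after quantile normalization and 0.04 without control A. The acute phase protein Lbp was at 12.91 on control A against 11.92 and 12.08 on the other controls.

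Of the hepatocyte markers, 10 of 10 were measured, with a median of 0.02 and 0 at unadjusted p below 0.05. Macrophage markers had 1 of 11 above 0 and a median of -0.10, which was -0.18 after quantile normalization, 0.02 without control A and -0.24 without control C. Neutrophil markers were at -0.14 (2 of 8 above 0), cholangiocyte markers at -0.10 (3 of 8; -0.01 without control B) and adipocyte markers at -0.11 (1 of 8). After quantile normalization these 3 medians were -0.09, -0.09 and -0.07. Endothelial markers were at 0.09 (5 of 7 above 0), which was 0.03 after quantile normalization, 0.01 without control C and 0.19 without control A, with the angiopoietin receptor Tek above all controls on all 6 arrays (0.23 ± 0.08, SE; limma adjusted p = 0.331). Stellate cell markers were at 0.08 (0.02 without control C, 0.17 without control A), T and NK cell markers at 0.02, and matrix genes at -0.03. Red cell precursor markers were at 0.02, which was -0.02 after quantile normalization, -0.10 without control A and 0.22 without control B. Timp1, an inhibitor of matrix proteases, was below all controls on all 6 restricted arrays by a small amount (-0.14 ± 0.06, SE; adjusted p = 0.378). The acinar median of 0.27 was set by IPCR C and was -0.10 without it. Clock modifier genes had a median of 0.06, within which Noct, a rhythmic deadenylase-like protein, was at 6.16, 6.25 and 6.59 on IUCR and at 8.82, 7.19 and 8.31 on IPCR arrays, against 6.24, 6.42 and 6.76 on controls.

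**Figure D5:**
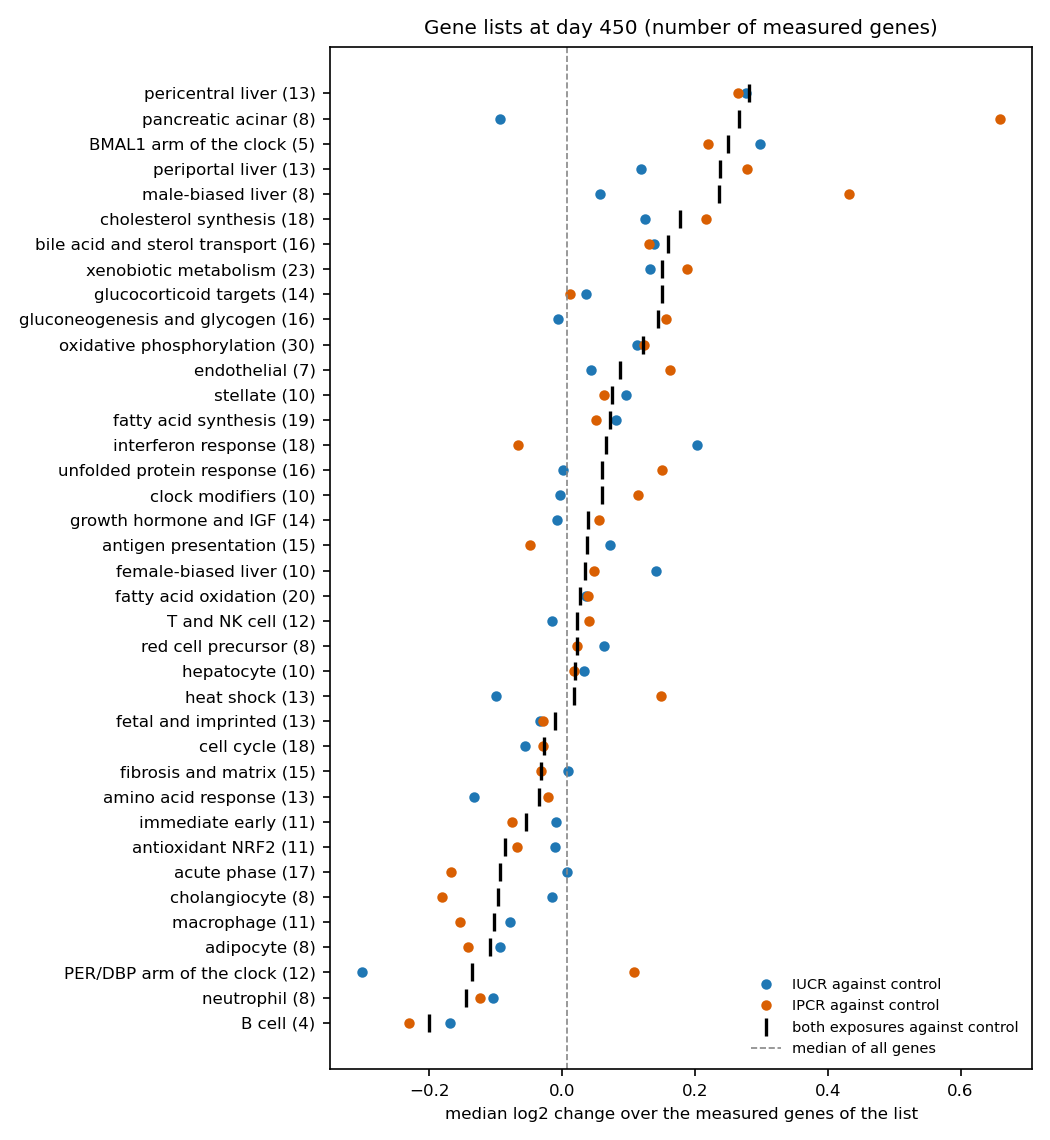
Median log2 change of each gene list in the pooled contrast at day 450 (black bars), with the medians of IUCR and IPCR against the same controls (points) and the median of all genes (dashed line). Pericentral, acinar and BMAL1 arm genes have the highest deposited medians at 0.28, 0.27 and 0.25, and B cell markers the lowest at -0.20; the acinar median is -0.10 without IPCR C.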

How the data were processed

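Liver RNA from 15 rats, 1 per array, was hybridised to Affymetrix Rat Gene 1.0 arrays. The deposited values are log2 intensities that the authors normalized by RMA in Affymetrix Expression Console, per the submitters' processing notes, with no version given in the sources used here. The array number limits the precision. Of 29215 probe sets, 15310 carry 1 gene symbol, 323 several and 13582 none in the supplied annotation. The brightest probe set stood for each of 14506 genes, 527 with more than 1, and 14481 matched RefSeq (GRCr8), with 0 symbols updated.

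Means of 5 groups were fitted over all 15 arrays (10 residual degrees of freedom) with limma 3.58.1 in R 4.3.3. The contrast was the mean of IUCR and IPCR minus control, at an adjusted p below 0.05 (Benjamini-Hochberg). SE is the moderated standard error. Array spread was tested by exact permutation. The method was tested on simulated data.

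Named were the 12 genes with the smallest p in each direction, all clock genes, 2 members by smallest p from every other list (38 lists in all, 478 of 534 members measured) and up to 3 genes differing between exposures; locus numbers and receptors of smell and taste were not named. Other genes in the text were chosen after their values were seen. Members and lists were chosen with earlier results of these data known. Replicate letters were not used as pairs in the main fit. Same-letter deviations correlated at -0.261 to 0.196, which cannot settle whether the letters mark a pairing. Alternatives were array subsets, leaving out each array, the replicate block, centring, quantile normalization, brighter genes only, probe set means, other moderation, an array-spread covariate and a looser threshold; those for contrasts other than the pooled and between-exposure comparison were added after seeing the data.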

Additional observations from a re-analysis of the deposited data

Results flagged for a closer look

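In 151 sets of 6 restricted values (named genes and list means), 11 had 1 array set apart from the other 5 by more than Dixon's 95% critical value of 0.625 of the range, which chance gives in about 5% of sets. The gap as a share of the range was 0.932 for Amy2a3, 0.834 for Cel and 0.947 for the pancreatic acinar mean, all with IPCR C high. IPCR C was also high for Stac3 (0.695) and the pericentral mean (0.63), and low for Me1 (0.701). IUCR B was low for Qdpr (0.688), Otulin (0.628) and the male-biased mean (0.755), and high for the immediate early mean (0.718). IPCR A was high for Jchain (0.634).

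The 2 exposures differed, as IPCR minus IUCR in limma, by 1.89 for Cyp7a1, 1.11 for Zfp189, 1.04 for Gstm3, 0.86 for Cxcl14, 0.52 for Pus3 and -1.16 for Apol3l1.

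The pooled change at day 450 minus the IPCR change at day 21 passed the test of that difference in limma for 51 of the 113 genes named by the rule. Over all genes it passed for 1235 (8.51%), and for 292 with each array's interquartile range in the model. Many named genes were picked by the day 450 change, a part of this difference, so nothing is read from the 51. The differences between the ages are listed next. Among the genes nearest to a common difference, the difference between the ages was 2.98 for Nrep, 0.62 for Fzd4, 0.54 for Ccdc80, 0.51 for Coq8a, 0.49 for Itpr2, 0.46 for Med13 and 0.32 for Otulin. It was -1.21 for Ltc4s, -0.77 for Pmm1, -0.74 for Ptprt, -0.61 for Scgb1c1, -0.58 for Syndig1l, -0.56 for Gpr139, -0.51 for Tmem215, -0.51 for Meig1 and -0.47 for Acbd7. In the BMAL1 arm of the clock it was 2.69 for Bmal1, 1.80 for Npas2, 0.75 for Nfil3 and 0.67 for Clock. In the PER/DBP arm it was -2.46 for Per3, -2.46 for Dbp, -1.51 for Per1, -1.22 for Per2, -1.20 for Wee1, -1.19 for Usp2, -0.88 for Tef and -0.64 for Nr1d2. Among the genes named from the other lists it was 3.65 for Sult2a1, 1.31 for Slco1b2, 1.29 for Srebf2, 1.17 for Ahr, 1.16 for Hsd17b7, 1.14 for Ctsc, 1.12 for Egr1, 1.01 for Cth, 0.91 for Rig1, 0.89 for Ugt2b1, 0.87 for Lrat, 0.84 for Pygl, 0.83 for Kdr, 0.78 for Stat5b, 0.60 for Nr3c1, 0.57 for Tek and 0.56 for Dgat2. It was -0.42 for Cldn4, -0.80 for Cyp4a1, -0.83 for Lbp, -0.95 for Ccne1, -1.87 for H19 and -2.39 for Noct.

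Among the 13582 probe sets with no gene in the supplied annotation, outside the counts of genes, 3 passed an adjusted p below 0.05 in the pooled contrast (limma, adjusted over these probe sets), and 1700 (12.5%) had an unadjusted p below 0.05. Probe set 10701210 was at 5.44, 5.76 and 5.58 on controls, 6.44, 6.56 and 6.40 on IUCR arrays and 6.49, 6.22 and 6.50 on IPCR arrays (0.85; adjusted p = 0.00288). Probe set 10752266 was at 7.72, 7.54 and 7.27 on controls, 6.56, 6.71 and 6.40 on IUCR arrays and 6.55, 6.70 and 6.26 on IPCR arrays (-0.98; adjusted p = 0.00806). Probe set 10701577 was at 5.97, 5.83 and 5.74 on controls, 6.91, 6.65 and 6.87 on IUCR arrays and 6.29, 6.28 and 6.31 on IPCR arrays (0.71; adjusted p = 0.00806). In all 3, the 6 restricted values lay beyond all 3 controls.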

How the results depend on the processing

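For the count of genes changed between restricted and control, 0 as reported, trend and robust moderation gave 1 (Ptprt), a threshold of adjusted p below 0.10 gave 3, and leaving out 1 array gave 0 to 4; the other alternatives gave 0. The smallest adjusted p was 0.652 with the array interquartile range as a covariate and 0.0747 after quantile normalization. For IUCR against control, 0 as reported, leaving out 1 array gave 0 to 2. For IPCR against control, 5 as reported, the fit of 9 arrays gave 2, centring 14, quantile normalization 3, genes above the median level 15, trend and robust moderation 15, the covariate 0, and leaving out 1 array 0 to 80. For IPCR against IUCR, 6 as reported, the fit of 9 arrays gave 0, centring 3, quantile normalization 0, trend and robust moderation 1, the covariate 3, a threshold of 0.10 gave 10, and leaving out 1 array 0 to 14. The day 21 count ranged from 755 to 1500 and the difference between ages from 705 to 1536 on leaving out 1 array; the latter was 292 with the covariate. The 621 genes whose groups do not overlap became 393 among genes above the median level and 694 to 1887 on leaving out 1 array, as fewer values allow. Genes with all restricted values above the controls numbered 251 and below 245 after quantile normalization. Genes at unadjusted p below 0.05 were 655 higher and 694 lower after quantile normalization, 491 and 372 with the covariate, and 1218 and 600 after centring.

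With the replicate letter as a replicate block, the pooled count stayed 0 in both fits, IPCR against control gave 0 in both, and IPCR against IUCR gave 3 with 15 arrays and 0 with 9. Of the 9 day 450 arrays, 2 correlated best with an array of their own letter. With 3 arrays in each group, this count cannot show whether the letters mark a pairing.

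Signs reversed for Nr1d2 after quantile normalization (-0.06) and with the covariate (-0.10), for Amy2a3 (-0.12), Cel (-0.032) and Zfp189 (-0.017) with the covariate, and on leaving out 1 array for Nr1d2 (-0.059 to 0.082), Cry2 (-0.15 to 0.038), Tef (-0.10 to 0.0067), Cel (-0.011 to 0.49) and Apol3l1 (-0.18 to 0.29). Cry1, 0.00 as reported, was -0.050 to 0.084. The cause was not tested.

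Limits: each group holds 3 rats from an unstated number of litters, collection time and scan dates are not in the labels, and no call of signal over background was used, so the standing of dim values is unknown.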
